A study of Mus musculus with 4 samples.

Results

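The genes described here are 51 enzymes and readers that write, remove or bind marks on histones, or that write or oxidise DNA methylation, outside the complex of the acetyltransferase Kat6a. They were taken by name from a list that was drawn up with earlier results of these data known, with no measured value as a criterion, and all 51 were found by Ensembl ID among the 55422 gene IDs of the count files. They were sorted into 11 groups by role: 5 acetyltransferases, 10 zinc-dependent deacetylases, 2 sirtuins, 7 genes of the H3K4 methyltransferase family, 4 H3K36 methyltransferases, 3 H3K9 methyltransferases, 4 subunits of Polycomb repressive complex 2, the H3K79 methyltransferase Dot1l, 7 demethylases, 3 readers and 5 genes of DNA methylation.

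Nuclei from the hippocampus of adult mice were profiled by droplet RNA sequencing with unique molecular identifiers (UMIs), which count each captured RNA molecule once. The 2 Control libraries came from Kat6a-f/f mice, whose Kat6a gene is flanked by loxP sites. The 2 Kat6a-cKO libraries came from mice that carry NEX-cre besides the same Kat6a-f/f alleles, so the loxP sites are common to both groups and only the Cre differs by label. NEX-cre puts Cre under the control of Neurod6, a gene of forebrain excitatory neurons, and does not direct the deletion to inhibitory neurons or glia. Whether a library is 1 animal or a pool is not given in the sources used here, so p-values measure only the spread between these libraries.

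Histone acetyltransferases such as Crebbp and Ep300 add acetyl groups that loosen the contact of histones with DNA and that bromodomain readers such as Brd2 and Brd3 bind, while histone deacetylases and sirtuins remove them. Methylation of histone lysines carries different meanings by position: H3K4 methylation marks active promoters and enhancers, H3K36 methylation marks transcribed gene bodies, and H3K9 methylation and the H3K27 methylation laid down by Polycomb repressive complex 2 go with silenced genes. Dnmt3a and Dnmt1 methylate cytosines in DNA and the Tet enzymes oxidise that methyl group. In the hippocampus several of these enzymes, among them Crebbp, Hdac2 and Dnmt3a, are known for their part in memory and in the genes that neurons switch on with activity.

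The libraries held 171323466 to 186897245 counts in all, and 10194 to 11521 barcodes of at least 1000 UMIs. Nuclei were clustered without the 51 genes, and clusters were named X-like from marker genes. The CA3-like, inhibitory-like, astrocyte-like, oligodendrocyte-like, OPC-like (oligodendrocyte precursor cell) and microglia-like clusters had at least 6 of the listed markers raised, or every listed marker where the list is shorter. CA1-like clusters had 4 to 6 of 7 CA1 markers raised and dentate granule-like clusters 3 to 6 of 6. Every library held at least 220 nuclei of each of these 8 classes. Any pair of libraries shared 27 to 35 barcodes, at most 0.343% of the smaller library. The libraries differed in makeup: a dentate granule-like cluster led by Igfbp5 and mitochondrial transcripts had 1087 and 1268 nuclei in the Control libraries against 225 and 460 in the Kat6a-cKO ones. The median depth of a nucleus was 11063 to 28607 UMIs in the neuronal classes and 2181 to 5582 in the glial ones. In 7 of the 8 classes, all but CA1-like, it was lower in both Kat6a-cKO libraries than in both Control libraries, as in CA3-like nuclei with 23549 and 24692 UMIs against 28607 and 25658. The part of this depth difference in the genotype values given further on was not tested.

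Levels are given as CPM, the counts of a gene over all UMIs of a class in a library on the usual scale, with no further scaling. They are not corrected for gene length, so they are compared here between classes and libraries for 1 gene and not between genes. The classes come from clusters of the same nuclei, so the levels by class are a description and carry no test. A pair of classes is said to differ beyond the spread only where the ranges of their 4 libraries do not overlap. As a reference for free RNA, the level in barcodes of 10 to 100 UMIs is given for Kat2b, Hdac7 and Eed. Low levels of the other genes are not set beside it here.

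The 300 bases around the start of transcription are shown for 3 of the genes whose level ranged over at least 4-fold between classes, with each CG in capitals, to show how far apart these starts are in CG content. Each window runs from 250 bases before to 50 after a start in RefSeq (GRCm38.p6) and is written 5′ to 3′ on the gene's strand. Kat2b is shown at chr17:53566721-53567020 on the plus strand, Hdac9 at chr12:34917046-34917345 on the minus strand, and Kdm7a at chr6:39206724-39207023 on the minus strand.
Kat2b: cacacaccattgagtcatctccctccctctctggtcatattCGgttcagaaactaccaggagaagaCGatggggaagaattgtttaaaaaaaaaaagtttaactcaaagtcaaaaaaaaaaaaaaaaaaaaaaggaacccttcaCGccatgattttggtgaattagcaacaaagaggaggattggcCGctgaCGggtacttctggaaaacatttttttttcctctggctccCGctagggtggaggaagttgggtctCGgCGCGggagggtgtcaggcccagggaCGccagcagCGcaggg
Hdac9: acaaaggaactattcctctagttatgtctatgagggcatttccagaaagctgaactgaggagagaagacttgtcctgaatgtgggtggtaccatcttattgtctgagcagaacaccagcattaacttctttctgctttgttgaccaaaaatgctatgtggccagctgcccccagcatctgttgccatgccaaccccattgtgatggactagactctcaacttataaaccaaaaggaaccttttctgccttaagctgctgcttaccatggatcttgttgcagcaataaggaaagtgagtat
Kdm7a: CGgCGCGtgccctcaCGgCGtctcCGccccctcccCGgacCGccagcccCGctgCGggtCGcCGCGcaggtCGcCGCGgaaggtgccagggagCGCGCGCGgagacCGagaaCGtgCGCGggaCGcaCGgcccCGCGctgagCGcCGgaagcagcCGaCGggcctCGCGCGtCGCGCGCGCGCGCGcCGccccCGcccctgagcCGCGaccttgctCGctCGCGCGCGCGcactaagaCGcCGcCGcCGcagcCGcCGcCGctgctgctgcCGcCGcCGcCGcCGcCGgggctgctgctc
The Kat2b window holds 11 CG, the Hdac9 window 0 and the Kdm7a window 65, and 0 and 65 are the lowest and the highest count among the windows of the 51 genes. Kat2b and Hdac9 each have another window in the table, with 6 and 3 CG. Of the 51 genes, 42 matched the table by symbol, with 61 windows. Their median was 28 CG against 7 over all 32851 windows and 13 over the 21263 windows of protein-coding genes.

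Most of the genes had their highest level in glia when scaled by plain totals. The share of all genes that are highest in any glial class was not counted, so this is not shown to be particular to these enzymes. The highest of the 8 class means was in microglia-like nuclei for 23 of the 51 genes, in astrocyte-like nuclei for 9, in oligodendrocyte-like nuclei for 7 and in CA3-like nuclei for 0. Among 13028 genes with at least as many counts as the least counted of the 51, the highest class was microglia-like for 38.6%. With DESeq2-type size factors in place of plain totals, microglia-like nuclei were highest for 14 of the 51, and 38 of the 51 kept their highest class. For 31 of the 51, each library of the highest class lay above each library of every other class, against 46.9% of the 13028 genes. Scaled by plain totals, 5 of the 51, Ep300, Hdac8, Setdb1, Eed and Kdm4a, were at least 2 times as high in 1 class as in every other, against 20.5% of those genes. Kat2b and Kdm3a joined this list with DESeq2-type size factors, at 2.42 and 2.45 times the next class, and Ep300 and Setdb1 left it. At least a 4-fold range between the highest and the lowest class was found for 11 of the 51, against 52.4% of those genes.

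The order of the classes depends on the scaling for many of the 51 genes. Under DESeq2-type size factors the highest class changed for 13: it became CA1-like for Hdac9, Kmt2a, Nsd3 and Kdm2b, CA3-like for Hdac2, Kdm1a and Kdm6b, astrocyte-like for Crebbp and Kmt2e, inhibitory-like for Hdac11 and Nsd2, oligodendrocyte-like for Kmt2b and dentate granule-like for Kdm7a. The range of the highest class no longer lay above all others for 15: Crebbp, Hdac4, Kmt2d, Setd1b, Nsd1, Ehmt2, Dot1l, Kdm1a, Kdm2b, Kdm7a, Brd2, Bptf, Dnmt1, Dnmt3a and Tet3. It newly did so for 5: Hdac5, Hdac6, Kmt2c, Kmt2e and Kdm4c. The lowest class changed for 19. It became microglia-like for Hdac2, Hdac4, Hdac6, Kmt2a, Ehmt1, Kdm1a, Kdm4c and Tet1, astrocyte-like for Hdac5, Hdac11, Kdm6b and Dnmt1, OPC-like for Kmt2d, Kmt2e and Setd1b, oligodendrocyte-like for Ehmt2 and Tet2, CA1-like for Hdac1 and dentate granule-like for Brd3. The levels that follow are scaled by plain totals unless stated.

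**Figure D1:**
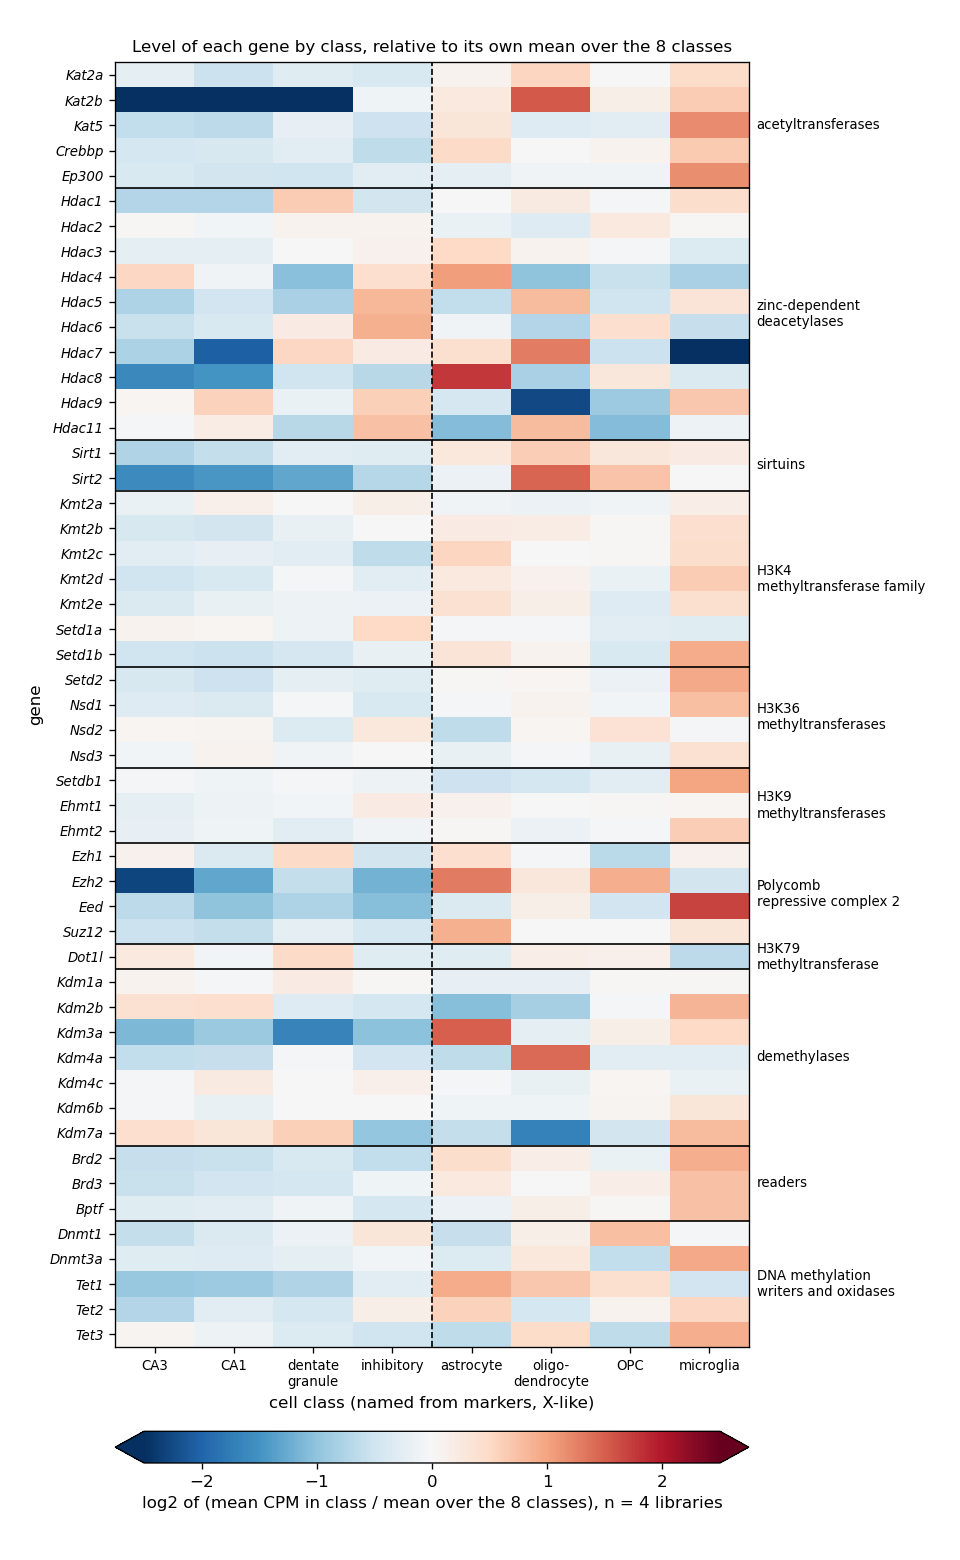
Mean CPM of each of the 51 genes (rows, by role) in the 8 classes (columns), as the log2 ratio to the gene's own mean over the classes, from 4 libraries; the dashed line separates neurons from glia. The darkest blue cells are Kat2b in CA3-like, CA1-like and dentate granule-like nuclei, with means of 5.68, 15 and 17.9 CPM, and Hdac7 in microglia-like nuclei, with 3.23 CPM.

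Among the acetyltransferases, Kat2b (PCAF, a coactivator of the GCN5 family; chr17:53566861-53672720 on GRCm38) had the widest range of all 51 genes. In oligodendrocyte-like nuclei its level was 348 and 318 CPM in the Control libraries and 319 and 320 in the Kat6a-cKO libraries, and in CA3-like nuclei it was 6.21, 5.61, 6.05 and 4.86 CPM, a ratio of the means of 57.4. The neuronal classes differed among themselves. Kat2b averaged 105 ± 5.46 CPM (SD, n = 4 libraries) in inhibitory-like nuclei against 15 ± 1.71 in CA1-like and 17.9 ± 1.17 in dentate granule-like nuclei, and the inhibitory-like range overlaps neither of the others. The levels in the 3 excitatory classes were under the free RNA level, which averaged 63.6 ± 9.91 CPM.

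Crebbp (CBP, a coactivator acetyltransferase bound by CREB) ranged over 2.43-fold: it averaged 578 ± 27.2 CPM in microglia-like nuclei, 514 ± 22.4 in astrocyte-like nuclei and 237 ± 6.67 in inhibitory-like nuclei, its lowest class. With DESeq2-type size factors its highest class was astrocyte-like. Its close relative Ep300 (p300) stood apart in microglia-like nuclei, with 426 and 489 CPM in the Control libraries against 452 and 530 in the Kat6a-cKO ones. The other 7 classes averaged 150 to 200 CPM, and no neighbouring pair of them in the order of the means differed beyond the spread. With DESeq2-type size factors the ratio of microglia-like nuclei to the next class fell from 2.37 to 1.78. Kat2a, the paralogue of Kat2b, averaged 5.32 to 11.2 CPM, and Kat5 (Tip60, of the NuA4 complex) 1.42 to 5.12 CPM, and neither had a class that stood above all others.

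The zinc-dependent deacetylases had their highest levels in different classes. Hdac8 (a class I enzyme that acts on cohesin) was highest in astrocyte-like nuclei, with 409, 409, 487 and 415 CPM in the 4 libraries, ahead of OPC-like nuclei at 154 ± 10.7 and CA3-like nuclei at 41.2 ± 3.02, its lowest class. Hdac9 (a class IIa enzyme that shuttles between nucleus and cytoplasm; chr12:34047580-34917095) averaged 731 ± 117 CPM in microglia-like nuclei against 95.3 ± 12.4 in oligodendrocyte-like nuclei. Inhibitory-like nuclei, at 690 ± 28.1, and CA1-like nuclei, at 679 ± 96.5, overlapped with the microglia-like ones and both lay above CA3-like nuclei at 472 ± 29.1. In a small hilar mossy-like cluster of 31 to 52 nuclei a library, Hdac9 reached 1172, 966, 842 and 903 CPM. With DESeq2-type size factors the highest of the 8 classes was CA1-like.

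Hdac4 (class IIa) was highest in astrocyte-like nuclei, with 375, 339, 421 and 334 CPM, and lowest in dentate granule-like nuclei, with 84.7, 83.7, 91.7 and 84.3. CA3-like nuclei, at 253 ± 15.2, lay above CA1-like nuclei, at 168 ± 12.5, and a small CA2-like cluster averaged 407 ± 11.3. Hdac7 (class IIa) had its highest level in oligodendrocyte-like nuclei, 60.6, 53.5, 60.6 and 57.3 CPM. It was lowest in microglia-like nuclei, at 3.23 ± 0.966, followed by CA1-like nuclei, at 5.76 ± 2.28, both under the free RNA level of 27.3 ± 4.38. The averages of OPC-like and CA3-like nuclei were under that level too, and inhibitory-like nuclei were close to it. Hdac7 overlaps the protein-coding gene Slc48a1 on the opposite strand, and the strand of counting is not given in the sources used here. The other 6 of these deacetylases had ranges of 1.49-fold (Hdac2, class I) to 3.64-fold (Hdac11, class IV). Hdac1 (class I) was highest in dentate granule-like nuclei, at 50.5 ± 2.24 CPM, beyond the range of every other class.

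Of the sirtuins, which need NAD, Sirt2 is known as a tubulin and histone deacetylase of myelin-forming cells. It was highest in oligodendrocyte-like nuclei, with 214, 219, 228 and 191 CPM, followed by OPC-like nuclei at 126 ± 11, and lowest in CA3-like nuclei at 25.8 ± 1.19. An unnamed cluster of 36 to 49 nuclei a library, led by Cnksr3, Tcf7l2, Bcas1 and Enpp6 and with markers of both OPCs and oligodendrocytes raised, held 905, 580, 972 and 1010 CPM of Sirt2, above each of the 8 classes. Sirt2 overlaps Nfkbib on the opposite strand, and the strand of counting is not given in the sources used here. Sirt1 averaged 13.8 ± 1.42 CPM in CA3-like nuclei and 35.7 ± 6.63 in oligodendrocyte-like nuclei.

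No gene of the H3K4 methyltransferase family reached a 4-fold range. Kmt2c (MLL3, which methylates enhancers) averaged 712 ± 35.6 CPM in astrocyte-like nuclei, 669 ± 74.0 in microglia-like nuclei and 316 ± 6.63 in inhibitory-like nuclei. The other 6 members had ranges of 1.25-fold for Kmt2a (MLL1) to 2.74-fold for Setd1b (the catalytic subunit of a COMPASS complex), and Kmt2d (MLL4) was highest in microglia-like nuclei, at 140 ± 12.2 CPM. The H3K36 methyltransferases Nsd1 and Setd2 were highest in microglia-like nuclei, beyond the range of every other class except, for Nsd1, under DESeq2-type size factors, where dentate granule-like nuclei overlap. Nsd1 had 805, 717, 850 and 827 CPM there and 365 ± 17.1 in inhibitory-like nuclei, and Setd2, the trimethylating enzyme, 287 ± 10.8 there and 105 ± 3.49 in CA1-like nuclei. Nsd2 and Nsd3 ranged over 2.0-fold and 1.49-fold. Among the H3K9 methyltransferases, Setdb1 (which silences retroelements) had 186, 198, 197 and 223 CPM in microglia-like nuclei, against 98.6 ± 3.52 in CA3-like nuclei, the next class. That ratio was 2.04, and it was 1.24 with DESeq2-type size factors. Setdb1 overlaps the protein-coding gene Cers2 on the opposite strand, and reads of the pair cannot be told apart here. Ehmt1 (GLP) ranged over 1.35-fold, from 243 ± 8.75 in CA3-like (microglia-like under DESeq2-type size factors) to 329 ± 11 CPM in inhibitory-like nuclei, and its partner Ehmt2 (G9a) over 1.84-fold.

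Within Polycomb repressive complex 2 the subunits had different patterns. Ezh2, a catalytic subunit, was highest in astrocyte-like nuclei with 158, 199, 172 and 198 CPM, followed by OPC-like nuclei at 137 ± 8.13, and was lowest in CA3-like nuclei with 15.6, 15.3, 14.8 and 13.7, a 12.2-fold range. Its alternative catalytic subunit Ezh1 was highest in dentate granule-like nuclei, at 65.9 ± 2.39 CPM, and lowest in OPC-like nuclei, at 29.8 ± 2.34. In an unnamed cluster of 81 to 185 nuclei a library, led by Sema3c, Adamts18 and Igfbpl1 and with Sox11 among its leading genes, Ezh2 had 267, 287, 283 and 280 CPM, above each of the 8 classes, while in hilar mossy-like nuclei it had 2.42 to 7.78. Eed, which binds the methylated lysine, had 127, 139, 142 and 161 CPM in microglia-like nuclei and 49.1 ± 10.3 or less in every other class, where oligodendrocyte-like nuclei alone averaged above the free RNA level of 38.4 ± 1.70. Suz12, the scaffold, was highest in astrocyte-like nuclei, at 286 ± 11.8 CPM, and lowest in CA1-like nuclei, at 103 ± 2.92. Dot1l, the only H3K79 methyltransferase, was highest in dentate granule-like nuclei, with 102, 93.9, 100 and 98.3 CPM, and lowest in microglia-like nuclei, at 45.2 ± 3.36.

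**Figure D2:**
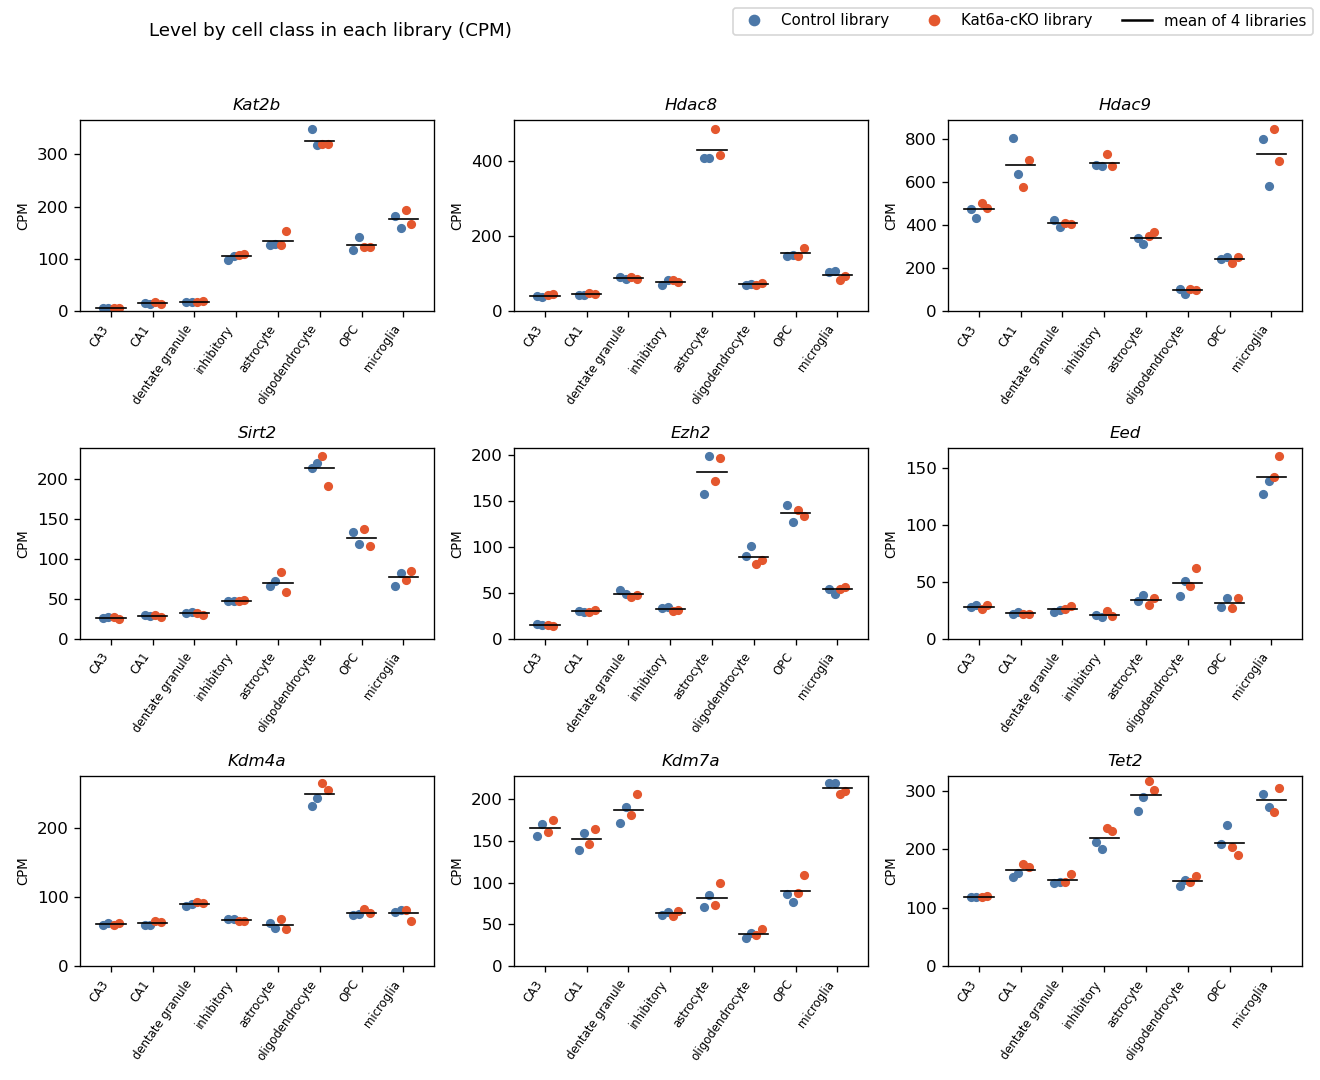
CPM of 9 genes (panels) in the 8 classes, 1 point per library (blue Control, red Kat6a-cKO), with the mean of 4 libraries as a line; each y axis starts at 0. Hdac8 stands apart in astrocyte-like nuclei (409 to 487 CPM), Kdm4a in oligodendrocyte-like nuclei (232 to 265) and Eed in microglia-like nuclei (127 to 161).

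Of the demethylases, Kdm4a (JMJD2A, which acts on H3K9 and H3K36) had 232, 244, 265 and 255 CPM in oligodendrocyte-like nuclei, and the other 7 classes averaged 60.0 to 90.2. Its relative Kdm4c varied less, from 284 ± 20.0 in oligodendrocyte-like to 376 ± 17.8 CPM in CA1-like nuclei, a 1.32-fold range. Kdm3a, an H3K9 demethylase, was highest in astrocyte-like nuclei, with 152, 205, 171 and 211 CPM, and lowest in dentate granule-like nuclei, at 20.5 ± 2.29. Kdm7a, which acts on H3K9 and H3K27, differed between excitatory and inhibitory neurons. It averaged 187 ± 14.9 CPM in dentate granule-like, 165 ± 8.73 in CA3-like and 152 ± 11.6 in CA1-like nuclei but 63.1 ± 3.25 in inhibitory-like nuclei, where each library was below each library of the 3 others. Its highest level was in microglia-like nuclei, at 213 ± 6.40, and its lowest in oligodendrocyte-like nuclei, at 38.7 ± 4.58. With DESeq2-type size factors dentate granule-like nuclei were highest. Kdm1a (LSD1) and Kdm6b (an H3K27 demethylase) had ranges of 1.33-fold and 1.39-fold, and Kdm2b 3.79-fold, from 49.7 ± 3.29 in astrocyte-like to 188 ± 20.9 CPM in microglia-like nuclei, which CA1-like nuclei replaced as the highest class under DESeq2-type size factors.

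The 3 readers were all highest in microglia-like nuclei. Bptf, the large subunit of the NURF remodeller that binds H3K4 methylation, had 269, 234, 253 and 275 CPM there and 115 ± 5.91 in inhibitory-like nuclei. Brd2 and Brd3 averaged 47.1 ± 10.7 and 37.9 ± 8.12 CPM there. Brd2 overlaps the protein-coding gene H2-DMa on the opposite strand, and reads of the pair cannot be told apart here. Among the genes of DNA methylation, the de novo enzyme Dnmt3a was highest in microglia-like nuclei, at 294 ± 38.8 CPM, and lowest in OPC-like nuclei, at 98.5 ± 9.95, whereas the maintenance enzyme Dnmt1 was highest in OPC-like nuclei, at 40.6 ± 10.5. Tet2 had 267, 290, 317 and 303 CPM in astrocyte-like nuclei, overlapping with microglia-like nuclei at 284 ± 19.0, and was lowest in CA3-like nuclei, with 119, 118, 119 and 121. Tet1 and Tet3 had ranges of 3.67-fold and 2.94-fold, with Tet1 highest in astrocyte-like and Tet3 in microglia-like nuclei.

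For 6 genes, Kat2b, Crebbp, Sirt2, Kmt2c, Suz12 and Kdm3a, each library of each glial class lay above each library of each neuronal class, against 5.99% of the 13028 genes. With DESeq2-type size factors this held for 0 of the 51 genes, so it rests on the scaling by plain totals. For none of the 51 did each neuronal library lie above each glial one. The 11 genes with at least a 4-fold range had a median of 17 CG in their CG-richest window (3 to 65), and the other 31 genes with a window had 34 (15 to 57). Over all genes of at least as many counts that had a window, the medians were 21 CG for the 5008 with such a range and 24 CG for the 4840 without it.

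The comparison of genotypes asked whether these enzymes changed with the loss of Kat6a in excitatory neurons. The CA3-like level of Kat6a itself was 63.6 and 66.3 CPM in the Control libraries against 58.7 and 65.2 in the Kat6a-cKO ones, a log2 fold change of -0.06 ± 0.08 (SE) with an adjusted p of 0.916 in the edgeR quasi-likelihood test. In dentate granule-like nuclei the change was -0.09 ± 0.06 with an adjusted p of 0.734 in edgeR, and Kat6a was not called in any class. Which exons are flanked by loxP sites is not given in the sources used here, and counts from the rest of the gene do not show their loss. The Cre entry in the count files had 0 counts in Control CA3-like nuclei and 33 and 51 in Kat6a-cKO, 58 and 55 in Kat6a-cKO CA1-like nuclei and 0 and 2 in inhibitory-like ones. In glia of the Kat6a-cKO libraries it had 2 and 3 counts in oligodendrocyte-like nuclei, 0 and 1 in astrocyte-like and in microglia-like nuclei and 0 in OPC-like nuclei. In the dentate granule-like nuclei of the Kat6a-cKO libraries, an excitatory class, it had 5 and 6 counts, out of 35034239 and 32076752 UMIs, fewer per UMI than in oligodendrocyte-like nuclei, which held 3648858 and 2601315 UMIs. It had 0 counts in every class of the Control libraries.

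None of the 51 genes passed an adjusted p of 0.05 (edgeR, Benjamini-Hochberg over all genes tested) in CA3-like nuclei, where 0.0270% of 14789 genes did. The count was also 0 in CA1-like nuclei (0.0180% of all genes called), dentate granule-like (0.386%), inhibitory-like (0%), astrocyte-like (0.212%), oligodendrocyte-like (0.00855%), OPC-like (0.264%) and microglia-like nuclei (0.0696%), and over all nuclei of at least 5000 UMIs (0.0552%). DESeq2 called 0 of the 51 in each of these as well. For inhibitory-like nuclei the number called by edgeR was 0 over all 14843 genes, 984 of which had an unadjusted p under 0.05, and the number called by DESeq2 was 13. All 51 genes were tested in the 4 neuronal classes, 50 in astrocyte-like, oligodendrocyte-like and OPC-like and 48 in microglia-like nuclei. The filter on low counts removed Kat5 in the 4 glial classes and Hdac6 and Hdac7 in microglia-like nuclei.

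At an unadjusted p under 0.05 there were 2 genes in CA3-like nuclei, 4 in CA1-like, 0 in dentate granule-like, 3 in inhibitory-like, 2 in astrocyte-like, 0 in oligodendrocyte-like, 3 in OPC-like and 4 in microglia-like nuclei. There were 4 over all nuclei. The shares over all genes in these classes, in the same order, were 8.17%, 8.34%, 9.90%, 6.63%, 7.23%, 7.77%, 7.62%, 9.28% and 10.4%, so the counts over both directions were near or under the background. All of these were higher in Kat6a-cKO except Hdac11 in OPC-like and Brd2 in microglia-like nuclei, where the counts of higher genes were 2 and 3. Over all genes, the shares higher in Kat6a-cKO at this level were 3.39%, 3.3%, 3.3%, 2.34%, 2.73%, 2.47%, 3.12%, 3.96% and 3.93% in the same order. The enzymes' counts in this direction, 0 to 4 genes in each, were not tested against these shares. The 95% confidence interval of the change lay within 1.5-fold in either direction for 50 of the 51 genes in CA3-like, 49 in CA1-like, 50 in dentate granule-like and 49 in inhibitory-like nuclei. In glia it did so for 36 of 50 in astrocyte-like, 41 of 50 in oligodendrocyte-like, 29 of 50 in OPC-like and 33 of 48 in microglia-like nuclei. The median log2 fold change of the genes tested was 0.02 in CA3-like nuclei and 0.11 in microglia-like nuclei, the lowest and highest of the 8 classes, beside medians of -0.004 and -0.002 over all genes. These medians depend on single libraries: without Control replicate 2 they were 0.01 in CA3-like and 0.03 in microglia-like nuclei, and OPC-like nuclei had the highest, 0.09, while without Kat6a-cKO replicate 2 the CA3-like median was 0.05.

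Both Kat6a-cKO libraries lay above both Control libraries for 10 of the 51 genes in CA3-like nuclei (16.6% of all genes), 17 in CA1-like (14.9%), 14 in dentate granule-like (17.4%) and 10 in inhibitory-like nuclei (14.5%). Among glia this held for 11 genes in astrocyte-like (15.3%), 9 in oligodendrocyte-like (16.0%), 18 in OPC-like (15.2%) and 10 in microglia-like nuclei (16.4%), and for 10 over all nuclei (16.6%). They lay below for 7 genes in CA3-like (20.8% of all genes), 4 in CA1-like (22.3%), 8 in dentate granule-like (21.6%) and 7 in inhibitory-like nuclei (21.3%). In glia they lay below for 7 in astrocyte-like (20.5%), 2 in oligodendrocyte-like (19.3%), 8 in OPC-like (21.4%) and 6 in microglia-like nuclei (22.2%), and for 5 over all nuclei (24.7%). In each of the 8 classes and over all nuclei the share above was larger, and the share below smaller, among the enzymes than among all genes; this is a description of the 4 libraries with no test.

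**Figure D3:**
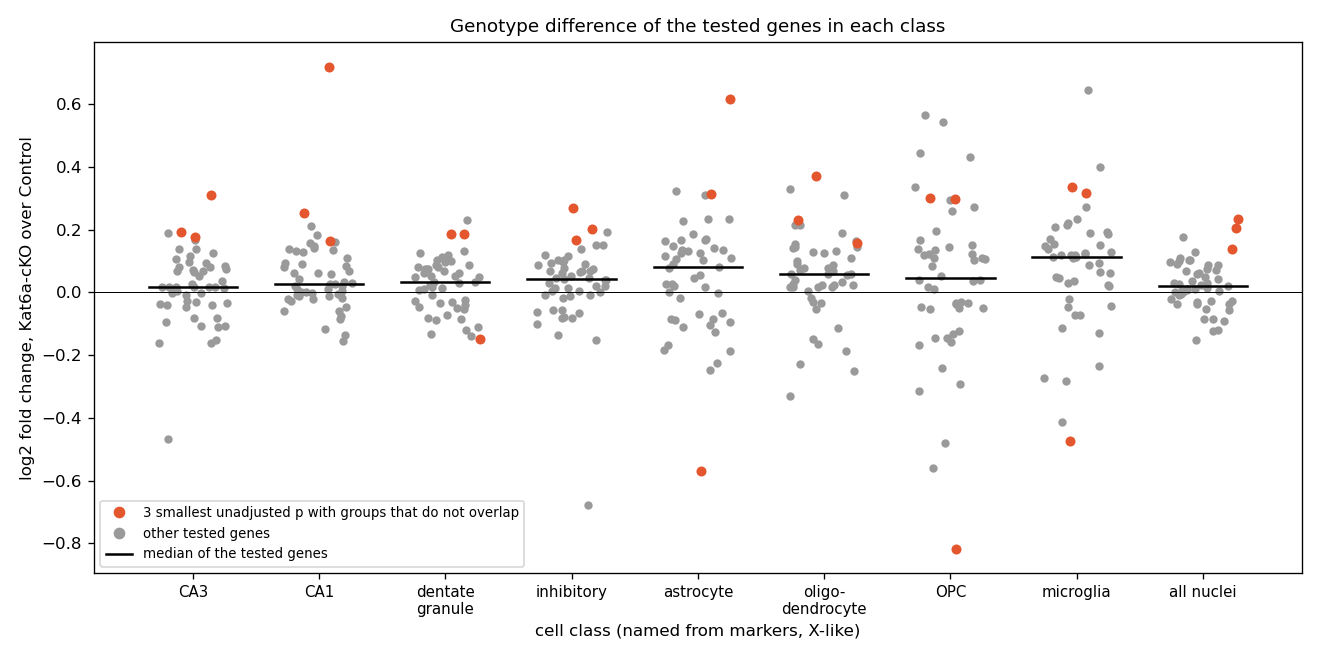
Log2 fold change of Kat6a-cKO over Control (y axis) of each tested gene in each class and over all nuclei (x axis), 1 point per gene, with the median as a line; red points are the 3 genes of smallest unadjusted p whose groups do not overlap. None of the points passed the adjusted threshold; the highest is Hdac7 in CA1-like nuclei at 0.72 and the lowest Hdac11 in OPC-like nuclei at -0.82.

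Summed levels of 17 marker lists were compared beside these values. The sums of 4 lists in CA3-like, 7 in CA1-like and 10 in microglia-like nuclei, and of 8 in each of the other 5 classes, did not overlap between the groups. Of these, 1, 3 and 4 were higher in Kat6a-cKO, and 2 to 5 in the other classes. Among all genes tested, both Kat6a-cKO libraries lay above both Control libraries for 14.5% to 17.4% in these classes, and below for 19.3% to 22.3%. The counts of lists were not tested against these shares. Not every such list is given below, and the part of none of them was tested.

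In CA3-like nuclei the smallest p was that of Dnmt3a (chr12:3806007-3914443). Its level was 108 and 112 CPM in the Control libraries against 143 and 127 in the Kat6a-cKO ones. The groups do not overlap, and the log2 fold change of Dnmt3a was 0.31 ± 0.08 (SE) with an unadjusted p of 0.00341 and an adjusted p of 0.292 in edgeR. Without the library Kat6a-cKO replicate 2 the log2 fold change was 0.41 with an adjusted p of 0.0159 in edgeR, in a fit where the lone Kat6a-cKO library is assumed to vary like the Control libraries. Without Kat6a-cKO replicate 1 the log2 fold change was 0.205. The change of Dnmt3a was 0.21 in CA1-like, 0.17 in inhibitory-like and 0.31 in astrocyte-like nuclei, each with an unadjusted p under 0.05, and in astrocyte-like nuclei the groups overlap. In dentate granule-like nuclei it was 0.13 and in oligodendrocyte-like nuclei 0.01, with intervals that include 0. Dnmt3a overlaps the antisense gene Dnmt3aos, and reads of the pair cannot be told apart here. Kdm2b (125 and 130 against 139 and 146 CPM) and Hdac8 (38.8 and 38.4 against 43.1 and 44.4 CPM) followed, with log2 fold changes of 0.18 and 0.19 and adjusted p of 0.527 and 0.622 in edgeR. In the CA3-like nuclei the summed level of 8 oligodendrocyte markers was 61.9 and 74.6 CPM in the Control libraries against 56.7 and 49.9. That of 8 microglia markers was 85 and 107 CPM against 72.9 and 81.2, lower in Kat6a-cKO. Of the 8 classes, microglia-like nuclei had the highest level of Dnmt3a. The 8 astrocyte markers summed to 27.4 and 33.7 CPM against 38 and 35.7, higher in Kat6a-cKO. None of these markers was at 0, and their part in these values was not tested.

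In CA1-like nuclei Hdac7 had 4.03 and 4.72 CPM in the Control libraries against 9.11 and 5.20 in the Kat6a-cKO ones. Each of these values is under the mean free RNA level of Hdac7 given above. The high value is that of Kat6a-cKO replicate 1, and the log2 fold change was 0.72 ± 0.26 with an adjusted p of 0.508 in edgeR. Without Kat6a-cKO replicate 2 it was 1.09 with an adjusted p of 0.0120 in edgeR, on the same assumption for the lone library, and without Kat6a-cKO replicate 1 it was 0.255. The summed level of the 6 dentate granule markers in the same nuclei was 50.0 and 56.6 CPM in Control and 80.2 and 61.9 in Kat6a-cKO, with no marker at 0. The 8 oligodendrocyte markers moved the other way, from 94.8 and 94.0 CPM to 87.4 and 77.8, also with none at 0. Hdac7 averaged 34.2 CPM in dentate granule-like and 58.0 in oligodendrocyte-like nuclei, and the part of RNA from either in the Hdac7 value was not tested. Hdac11 (29.8 and 31.6 against 38.8 and 33.5 CPM) and Tet2 (152 and 161 against 175 and 171 CPM) had log2 fold changes of 0.25 and 0.16, with adjusted p of 0.552 and 0.571 in edgeR.

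In dentate granule-like nuclei the smallest p values were those of Eed (23.1 and 25.5 against 26.4 and 28.6 CPM), Kmt2b (MLL2; 19.5 and 18.0 against 21.6 and 20.8 CPM) and Hdac2 (59.1 and 56.3 against 49.5 and 53.8 CPM). Their log2 fold changes were 0.19, 0.19 and -0.15, and their adjusted p 0.538, 0.602 and 0.603 in edgeR. Each of the Eed values is under the mean free RNA level of Eed given above. The 8 microglia markers in these nuclei summed to 183 and 211 CPM in the Control libraries against 150 and 156, with none at 0. Microglia-like nuclei had the highest level of Eed, and the part of such RNA in these values was not tested. Without the cluster led by Igfbp5, an alternative added after the data were seen, edgeR again called 0 of the 51 genes in this class, and 1 of 16664 genes in all. In inhibitory-like nuclei, which NEX-cre does not target, Tet2 had 213 and 200 CPM in Control and 237 and 231 in Kat6a-cKO, Hdac7 25.4 and 25.0 against 30.3 and 29.7, and Dnmt3a 139 and 137 against 155 and 150. Their log2 fold changes were 0.20, 0.27 and 0.17, with adjusted p of 0.630, 0.695 and 0.725 in edgeR. In the same nuclei the 5 Cajal-Retzius markers, of which Lhx1 was at 0, summed to 427 and 422 CPM in the Control libraries against 498 and 500. These markers include Reln, which is also a leading gene of an inhibitory-like cluster, so the sum is not particular to Cajal-Retzius cells. The 8 oligodendrocyte markers, none at 0, summed to 110 and 118 CPM against 82.1 and 80.35. The part of these lists in the values of Tet2, Hdac7 and Dnmt3a was not tested.

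In glia the changes were less precise. In astrocyte-like nuclei Kmt2b had 18.6 and 23.5 CPM in Control and 31.0 and 31.5 in Kat6a-cKO, Tet3 80.3 and 69.7 against 86.8 and 99.4, and Hdac5 (class IIa) 19.6 and 22.7 against 15.1 and 12. The log2 fold changes were 0.62 ± 0.26, 0.31 ± 0.17 and -0.57 ± 0.31, with adjusted p of 0.519, 0.708 and 0.710 in edgeR. The 8 oligodendrocyte markers in these astrocyte-like nuclei summed to 261 and 313 CPM in the Control libraries against 207 and 170, with none at 0. Hdac5 averaged 45.9 CPM in oligodendrocyte-like nuclei, and the part of such RNA in the Hdac5 value was not tested. The 6 inhibitory markers (813 and 796 against 919 and 954.5 CPM) and the 7 endothelial markers (19.6 and 14.9 against 24.2 and 47.2 CPM), none at 0, were higher in Kat6a-cKO. Their part in the values of Kmt2b and Tet3 was not tested. In oligodendrocyte-like nuclei Kmt2a had 125 and 120 against 145 and 140 CPM, Kmt2b 24.9 and 20.2 against 30.4 and 27.7, and Kdm4c 257 and 284 against 301 and 296. Their adjusted p were 0.699 to 0.827 in edgeR. The 4 markers of committed oligodendrocyte precursors in these nuclei summed to 522 and 530 CPM against 628 and 626, with the defining marker Gpr17 at 0, and 5 neuronal markers, none at 0, summed to 888 and 1145 CPM against 850 and 818. Their part in the values of Kmt2a, Kmt2b and Kdm4c was not tested. In OPC-like nuclei Hdac11 had 20.1 and 16.4 CPM in Control and 12 and 7.36 in Kat6a-cKO, a log2 fold change of -0.82 ± 0.37 with an adjusted p of 0.570 in edgeR. There the 8 oligodendrocyte markers summed to 236 and 225 CPM in Control and 182 and 182 in Kat6a-cKO, with none at 0. The 6 inhibitory markers moved the other way, from 3756 and 3752 CPM to 3824 and 4005, with none at 0. Hdac11 averaged 50.9 CPM in oligodendrocyte-like and 49.2 in inhibitory-like nuclei, whose ranges overlap, and the part of RNA from either in the difference was not tested. Kmt2a and Hdac4 in OPC-like nuclei both had log2 fold changes of 0.30, with adjusted p of 0.609 and 0.634 in edgeR.

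In microglia-like nuclei Kdm4c had 248 and 267 CPM in Control and 300 and 330 in Kat6a-cKO, Kmt2a 139 and 155 against 190 and 170, and Brd2 49.0 and 61.4 against 38.2 and 39.6. The log2 fold changes were 0.32 ± 0.12, 0.34 ± 0.14 and -0.47 ± 0.23, with adjusted p of 0.365, 0.423 and 0.520 in edgeR. The Brd2 value may hold reads of H2-DMa, which overlaps it on the opposite strand, and their part was not tested. Some marker sums in these microglia-like nuclei did not overlap between the groups. The 8 astrocyte markers summed to 776 and 651 CPM in the Control libraries and 853 and 778 in the others, and the 8 microglia markers to 5967 and 5829 against 5623 and 5636. The 8 oligodendrocyte markers (374 and 381 against 343 and 320 CPM) and 5 neuronal markers (1261 and 1615 against 1211 and 1239 CPM) were lower in Kat6a-cKO. No marker of these lists was at 0, and their part in the values of Kdm4c, Kmt2a and Brd2 was not tested. Hdac11 had the highest fold change there, 0.65, through Kat6a-cKO replicate 1 alone: its libraries had 20.9 and 23.5 CPM against 43.7 and 20.4, so the groups overlap. Over all nuclei Hdac4 had 162 and 161 CPM in Control and 185 and 184 in Kat6a-cKO, a log2 fold change of 0.21 ± 0.05 with an adjusted p of 0.231 in edgeR. Sums over all nuclei move with the shares of the classes as well as with levels, and in CA3-like nuclei, where Hdac4 is high, the number of nuclei was 484 and 570 in the Control libraries against 593 and 681 in the others. In dentate granule-like nuclei, where Hdac4 is lowest by plain totals, the number of nuclei was 3422 and 3189 in the Control libraries against 3007 and 2732. The part of the class shares in the Hdac4 value was not tested.

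**Figure D4:**
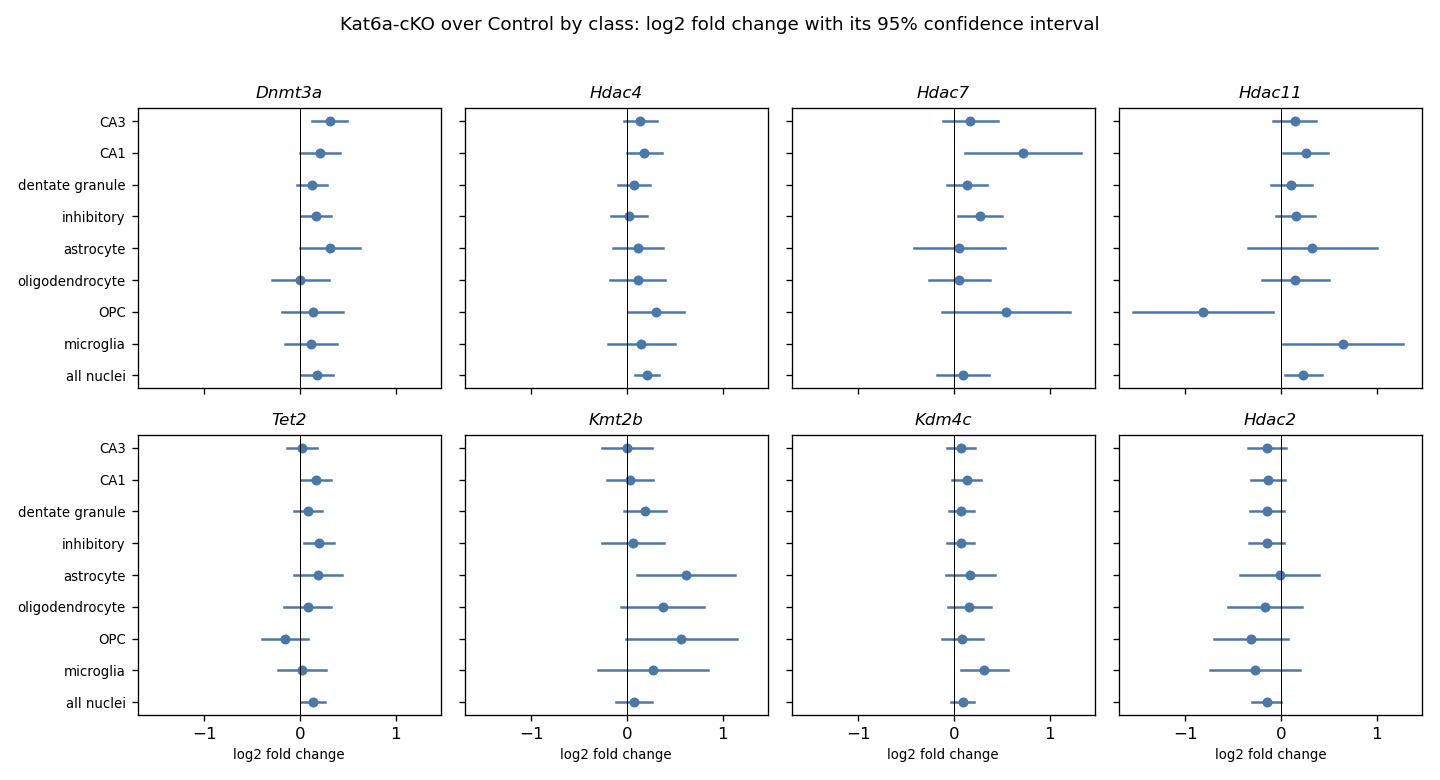
Log2 fold change of Kat6a-cKO over Control (x axis; point) with its 95% confidence interval (line) for 8 genes (panels) in each class and over all nuclei (y axis); Hdac7 was not tested in microglia-like nuclei. Intervals tend to be narrower in neurons than in glia, but that of Hdac7 in CA1-like nuclei is wide. Dnmt3a is at 0.31 in CA3-like nuclei and near 0 in oligodendrocyte-like nuclei.

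Some genes had the same sign in each of the 8 classes without passing the test in any. Hdac2, a class I deacetylase, had negative log2 fold changes in 8 of 8 classes, from -0.31 to -0.02. Hdac4, Kmt2c, Kmt2e, Setd2, Nsd1, Nsd3, Ehmt1, Kdm4c, Dnmt3a and Tet3 had positive ones in 8 of 8, the highest being 0.32 for Kdm4c. Of the 48 enzymes tested in all 8 classes these are 10 positive and 1 negative, against 6.87% and 10.8% of the 8380 genes so tested. For Kmt2c both Kat6a-cKO libraries lay above both Control libraries in 7 of the 8, and this held in at least 7 classes for 0.406% of those genes and for none of the other enzymes tested in all 8. The classes come from the same 4 libraries and are not replicates of each other, so this count carries no test.

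The difference of the genotype change between classes was tested for 4 pairs, and 0 of the 51 genes passed in each. Over all genes, 0.0658% passed for CA3-like minus CA1-like nuclei, 0.167% for CA3-like minus dentate granule-like, 0.129% for CA1-like minus dentate granule-like and 0.0313% for CA3-like minus inhibitory-like. At an unadjusted p under 0.05 there were 3, 3, 4 and 1 of the 51, against 5.88%, 5.86%, 7.33% and 5.39% of all genes. These were Hdac5, Hdac7 and Hdac9, then Tet1, Dnmt3a and Eed, then Kmt2d, Hdac7, Ezh2 and Hdac8, and then Tet2. Over the 4 pairs, the smallest adjusted p for the difference in log2 fold change was that of Hdac7. Its change was 0.60 ± 0.19 higher in CA1-like than in dentate granule-like nuclei (adjusted p of 0.482 in edgeR). Within the pair of CA3-like and CA1-like nuclei alone, the smallest was that of Hdac9, 0.29 ± 0.10 higher in the former (adjusted p of 0.708 in edgeR). Without Kat6a-cKO replicate 2 the differences were 0.90 and 0.47, again with a lone Kat6a-cKO library. That library is Kat6a-cKO replicate 1, which holds the high CA1-like value of Hdac7 given above. The differences without each of the other libraries are not given here. Dnmt3a was 0.17 ± 0.07 higher in CA3-like than in dentate granule-like nuclei, with an adjusted p of 0.738 in edgeR.

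The other genes of the same pathways gave the same count. Of 45 further writers and erasers, 37 to 44 were tested in each class and 0 were called by edgeR in any class, with 0 to 4 at an unadjusted p under 0.05. Of 66 complex partners and readers, 55 to 63 were tested and 0 were called, with 1 to 4 at an unadjusted p under 0.05. Over all genes, the shares in these classes were 6.63% to 9.90% at an unadjusted p under 0.05 in edgeR and 0% to 0.386% called. Their median log2 fold changes in CA3-like nuclei were 0.02 and 0.01, beside 0.02 for the 51 genes and -0.004 over all genes.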

How the data were processed

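Raw UMI counts per barcode and gene were deposited by the authors for all barcodes, as whole numbers. The genome build mm10 and Seurat 4.0.1 are named per the submitters' processing notes; the aligner, annotation and strand of counting are not given in the sources used here. Gene symbols came from the gene IDs, and 50 of the 51 genes matched GENCODE M21 (GRCm38) by ID and version, Eed being the exception; 40 of the 51 overlap another gene of M21.

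Barcodes of at least 1000 UMIs were clustered in scanpy 1.11.5 (2000 variable genes, 30 components, 15 neighbours, Leiden resolution 1 with leidenalg 0.10.2) after Scrublet doublets (350 to 550 per library) were left out; 202 genes, the 51 among them, were kept out. A cluster was named where at least 50% and at least 3 of a class's markers were raised 2-fold, unless markers of a second lineage or of neurons were raised too, markers of another lineage led its genes, or its UMI counts were too low, or for glia too high, for the class. Neurons needed 5000 UMIs and glia 1000. Unnamed clusters held 13.8% to 19.8% of a library's nuclei of at least 5000 UMIs. The naming thresholds were set with the data in view.

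Counts were summed per class and library and tested with edgeR 4.0.16 (quasi-likelihood, TMM, filterByExpr, Benjamini-Hochberg over all genes, threshold 0.05), with 2 libraries against 2. Differences between classes were tested as an interaction with the library as a block. DESeq2 1.42.0 was an alternative. The procedure was tested on simulated data. Intervals are at 95%. No paired design is stated in the labels. Values were given for the 3 genes of smallest p per class whose groups do not overlap, and for genes with a 2-fold class difference, a 4-fold range or the most counts of their role. The members and lists were chosen with earlier results of these data known.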

Additional observations from a re-analysis of the deposited data

How the results depend on the processing

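The count of 0 called genes became 1 in these settings, with total calls over all genes rising as well. In CA3-like nuclei Dnmt3a was called with no filter on low counts (1 gene, adjusted p of 0.0192), and 318 genes were then called in all, against 4. In CA1-like nuclei Hdac7 was called with no filter (1 gene, adjusted p of 0.00701), among 504 genes in all against 3. With no filter 1 gene was also called in the interaction of CA3-like and CA1-like nuclei (Hdac9, adjusted p of 0.00109) and in that of CA1-like and dentate granule-like nuclei (Hdac7, adjusted p of 0.00401), with 172 and 274 genes called in all against 11 and 23. Leaving out 1 library gave 0 to 1 called genes in CA3-like, CA1-like and microglia-like nuclei and in those 2 interactions, and 0 in the other classes and interactions. The calls came without Kat6a-cKO replicate 2 and, in microglia-like nuclei, without Control replicate 1, there for Hdac9 with a log2 fold change of 0.465. In each of these fits a group has a lone library, and calls over all genes rose too. The cause was not tested.

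The labels do not say that replicate numbers pair the libraries. Over genes, the difference between Control replicates and that between Kat6a-cKO replicates, in the same order, had a correlation of 0.0255 to 0.161. With the replicate number as a block, 1 gene was called in CA3-like nuclei (Dnmt3a, adjusted p of 0.0141) and 1 over all nuclei (Hdac4, adjusted p of 0.0357), with 329 and 847 genes called in all; in the other 7 classes it was 0.

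None of the 327 values that the alternatives gave for the 27 genotype changes named within a class or over all nuclei reversed. Of these values, 321 stayed on their side of the threshold and 6 passed it. The 27 were named because their groups do not overlap, so leaving out 1 library could hardly reverse them. None of the 27 was called with all libraries, so staying on the same side means staying uncalled. The differences between classes are not among these 327. Of 88 levels, 17 moved by more than 1 SD, mostly with DESeq2-type size factors. The precision is limited in glia, where the median half-width of the interval was 0.30 to 0.34 on the log2 scale, against 0.17 to 0.20 in neurons.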
